A study of Mus musculus with 3 samples.

Results

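The strongest sites of TRα1 occupancy were examined in striatum of euthyroid male C57BL/6J mice of 8 weeks, which expressed a GS-tagged TRα1 (genotype label TRa1 GS-tagged) in GABAergic neurons only. The 3 libraries, 2 from ChIP and 1 from input chromatin, shared this genotype, and the mice received no treatment. Mice without the tagged receptor were not analysed here, and neither the number of mice in each library nor the promoter that drives the tagged receptor was given in the sources used here. Strong sites were selected on the deposited peak values themselves, as TR binding sites (TRBS) with a fragment pileup of at least 100 at the summit and a local background of at most 6 fragments. They numbered 690 of 23988 TRBS (2.88%), and the other 23298 TRBS are called the other sites.

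Thyroid hormone receptors are nuclear receptors that bind DNA mainly as heterodimers with RXR and activate transcription when T3 binds. Their best known response element, DR4, repeats the half-site AGGTCA in the same direction after a short spacer, and each partner of the heterodimer contacts a half-site. In the striatum, the GABAergic neurons are for the most part projection neurons, which read dopamine through cAMP signalling.

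Among the strong sites, 140 (20.3%) had a DR4 within 100 bp of the summit in which no more than 2 of the 12 half-site bases were mismatched, and 16 had at most 1 mismatch. Among these 16, the elements of the 10 sites of highest fold enrichment are shown because they are the closest matches to the consensus. They are written 5′ to 3′ along the repeat, from the RefSeq sequence of GRCm38, with the half-sites in capitals and with 5 bp on each side, each under the nearest protein-coding gene, its position and its strand.
Cyp46a1, chr12:108339002-108339027, minus strand: agtggAGGGCAactgAGGTCActccg
Rcc2, chr4:140701191-140701216, minus strand: tagacAGGTCAcctgAGGACActcgc
Abcd2, chr15:91191971-91191996, plus strand: tggagAGGTCGaatgAGGTCAgctgc
Ppp1ca, chr19:4196240-4196265, plus strand: gggcaAGGTCAtgggAGGCCAgggag
Cmya5, chr13:93029481-93029506, minus strand: tcctcAAGTCAtttcAGGTCAgaaac
2310061I04Rik, chr17:35896735-35896760, plus strand: atggcAGGTCAcccgAGGTCAagcct
Thbs4, chr13:92799752-92799777, plus strand: agaagAGGTCAggcaAGGTCAaggca
Siae, chr9:37573202-37573227, plus strand: aactgAGGTCAagagAGGTAAgtgaa
Grip1, chr10:119531527-119531552, minus strand: aacatAGGTCAgagaAGGTGAaacac
Yif1b, chr7:29238506-29238531, plus strand: tggcgAGGTCActccAGGTCGgacgg

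The strong sites of highest fold enrichment did not belong to this group. The 201 bp around the summit are therefore shown for the leading 2 strong sites with a DR4 of at most 2 mismatches, Dmtn and the site in an intron of Pde10a, and for the leading 2 without one, Rnf32 and Kmt5c. Capitals mark the half-sites of the best DR4 match, which had 2 mismatches in the first 2 windows, 3 at Rnf32 and 4 at Kmt5c.
Dmtn, chr14:70625801-70626001, minus strand: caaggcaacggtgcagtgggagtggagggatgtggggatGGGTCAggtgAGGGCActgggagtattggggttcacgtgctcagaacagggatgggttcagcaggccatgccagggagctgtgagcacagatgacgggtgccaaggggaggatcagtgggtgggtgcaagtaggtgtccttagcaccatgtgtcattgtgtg
Pde10a intron (nearest gene Gm17087), chr17:8658937-8659137, minus strand: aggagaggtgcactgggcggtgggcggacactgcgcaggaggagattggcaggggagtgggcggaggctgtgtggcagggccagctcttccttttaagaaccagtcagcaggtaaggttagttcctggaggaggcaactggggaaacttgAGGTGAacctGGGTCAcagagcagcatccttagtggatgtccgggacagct
Rnf32, chr5:28859932-28860132, plus strand: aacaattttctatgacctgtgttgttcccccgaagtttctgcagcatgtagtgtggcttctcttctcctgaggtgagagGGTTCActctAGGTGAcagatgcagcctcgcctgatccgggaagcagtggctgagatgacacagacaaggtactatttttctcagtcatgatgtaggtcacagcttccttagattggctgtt
Kmt5c, chr7:4739872-4740072, plus strand: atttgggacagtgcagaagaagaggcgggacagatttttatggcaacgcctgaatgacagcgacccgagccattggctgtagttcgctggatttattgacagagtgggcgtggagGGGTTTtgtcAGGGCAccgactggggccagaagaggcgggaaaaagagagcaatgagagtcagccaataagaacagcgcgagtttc

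The list gave 1 value per site for the series and none per library, so the spread between the ChIP libraries is unknown for every value below. Library depth was not analysed here. The intervals are 95% Wilson intervals and, like the tests, take sites as units. Neighbouring sites are not independent, so both cover the counting of sites only and not the variation between mice.

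The values that chose the strong sites are given as a description. Their pileup ran from 100 to 445 fragments, with a median of 128 and quartiles of 113 and 160, whereas the median of the other sites was 21 fragments. The fold enrichment of the strong sites over the local background ran from 19.7 to 123, with a median of 42.6. The local background of the strong sites stayed between 1.69 and 5.11 fragments. At the lowest value of the list, 1.69, lay 212 strong sites (30.7%) and 9961 other sites (42.8%). In a ranking by fold enrichment alone, 587 of the top 690 sites were strong. Fold enrichment is computed from the pileup and background that the rule used, so this overlap is no independent check. Strong sites measured 462 to 2903 bp, with a median of 880 bp, against a median of 415 bp for the other sites.

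**Figure D1:**
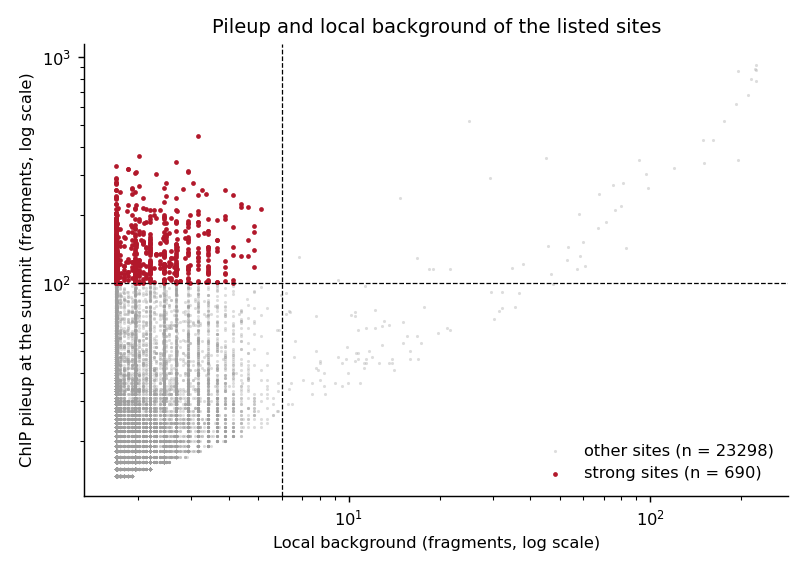
Pileup at the summit against local background, both in fragments on log scales, for each of the 23988 TRBS. Red points are the 690 strong sites, grey points the other 23298, and dashed lines mark 100 and 6 fragments. The strong sites lie at backgrounds of 1.69 to 5.11 fragments, and the grey points at the upper right are sites of high pileup and high background.

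The limits of the rule cut through a continuous range. At a pileup of exactly 100 fragments there were 19 strong sites, with fold enrichments of 19.7 to 37.6. Among these 19 was an intergenic site at fold 37.6 whose nearest protein-coding gene was Penk, the enkephalin precursor of striatal projection neurons. Penk was named after the values were seen, and the other nearest genes there included Adrm1, Cyb5a, Emcn, Ift52 and Zfpm1. At 99 fragments and the same background limit there were 16 sites, with fold enrichments of 24.0 to 37.2. The background axis was read among sites with a pileup of at least 100. There, the highest value inside the limit was 5.11 fragments, near Klf10, and the lowest outside was 6.81, near Scd4.

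The background limit left out 46 sites with a pileup of at least 100. Repeat-masked sequence filled over 50% of the 201 bp around the summit at 24 of these 46 sites (52.2%), at 4 of the 690 strong sites (0.580%) and at 988 of the other sites (4.24%).

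The strong sites were spread over all autosomes, where they made up 2.38% (chromosome 13) to 3.50% (chromosome 10) of the TRBS. Chromosome X held 5 strong sites among 348 TRBS (1.44%), and chromosome Y none among 9. Another TRBS lay within 10 kb of 317 strong sites (45.9%, interval 42.3 to 49.7%) and of 38.9% of the other sites.

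Strong sites lay at promoters more often than the other sites. The summit was within 1 kb of a protein-coding transcription start site (TSS) at 227 of 690 strong sites (32.9%, interval 29.5 to 36.5%) and at 4667 other sites (20.0%, interval 19.5 to 20.6%), with an odds ratio of 1.96 (Fisher's exact test, two-sided, p = 6.49e-15). The classes between 1 and 30 kb held similar shares of both, for example 15.7% and 16.6% at 10 to 30 kb. Beyond 100 kb the share was 15.8% of strong sites and 23.9% of the other sites. Downstream of the nearest TSS lay 413 strong sites (59.9%, interval 56.2 to 63.4%), and this share was not compared with the other sites. The paper reports that TRBS in general were more frequent downstream of the TSS.

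**Figure D2:**
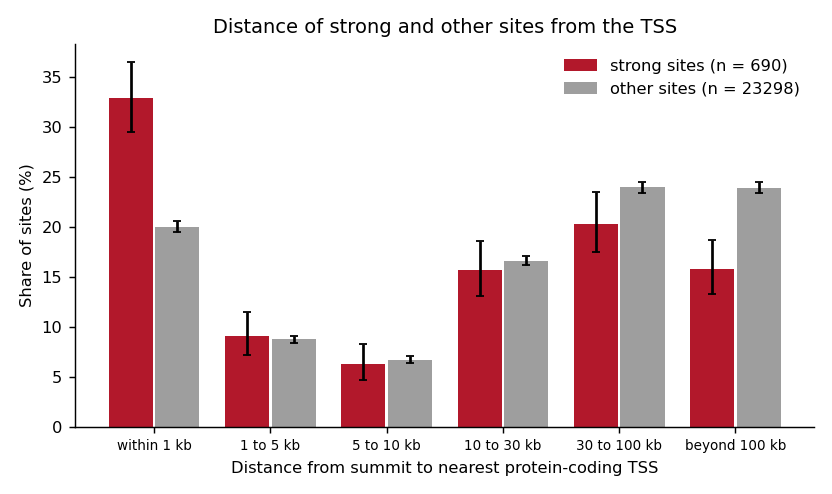
Share of sites (%) by distance between the summit and the nearest protein-coding TSS, for 690 strong sites (red) and 23298 other sites (grey), with 95% Wilson intervals as error bars. Strong sites exceed the other sites within 1 kb (32.9% and 20.0%) and fall short of them beyond 100 kb (15.8% and 23.9%).

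By annotation, 112 strong sites (16.2%) lay in the 5 kb upstream of a gene against 9.23% of the other sites (Fisher's exact test, adjusted p = 4.99e-08). Exons held 123 strong sites (17.8% against 13.8%, adjusted p = 0.00508, Fisher's exact test). Introns held 292 (42.3% against 47.7%, adjusted p = 0.00750) and intergenic sequence 160 (23.2% against 28.5%, adjusted p = 0.00504), both lower shares than at the other sites in Fisher's exact test. The 1 kb downstream of genes held only 3 strong sites, 0.435% against 0.790%, and this difference did not pass (adjusted p = 0.383, Fisher's exact test). Of the 123 exonic summits, 88 lay in untranslated regions and 17 in coding sequence, a split that was not compared with the other sites. No protein-coding TSS lay within 30 kb of 249 strong sites (36.1%). Other sites were that distant more often, with 24.0% at 30 to 100 kb and 23.9% beyond, against 20.3% and 15.8% of strong sites. Of the 463 strong sites beyond 1 kb, 24 (5.18%) were within 1 kb of the TSS of another annotated gene, such as a noncoding RNA. This share was not compared with the other sites. With the TSSs of all annotated genes, 36.4% of strong sites and 23.8% of the other sites lay within 1 kb.

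The GC content of the 201 bp around the summit had a median of 67.7% at strong sites within 1 kb of a TSS, compared with 66.2% at the other sites there. Beyond 1 kb the medians were 51.7% and 48.3%. The ratio of observed to expected CpG had medians of 0.836 and 0.798 within 1 kb and of 0.279 and 0.229 beyond. These shifts are small beside the quartiles, which for strong sites beyond 1 kb were 47.3% and 56.7% GC. Their part in the sequence comparisons below was examined only by restricting the sites to a common GC range.

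DR4 was the arrangement of half-sites that marked the strong summits. With at most 2 mismatches it occurred at 140 of 690 strong sites (20.3%, interval 17.5 to 23.5%) and in 20 windows of the same width 5 kb to their right (2.90%), so that sites held it 7 times as often as flanks (exact McNemar test, p = 1.00e-23, two-sided). It was present in the site alone for 139 pairs and in the flank alone for 19. Over all 23988 TRBS the share was 13.1%, and over the other sites it was 12.9%, so that strong sites carried it more often, with an odds ratio of 1.71 (Fisher's exact test, p = 1.20e-07). Most strong sites, 550 of 690, lacked a DR4 within this limit.

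Of the 11 arrangements compared with the flanks (direct repeats with spacers of 0 to 8 bp, DR0 to DR8, the everted repeat ER6 and the inverted repeat IR0), DR4 alone passed (adjusted p = 1.10e-22, exact McNemar test). ER6, which has been described as a response element in vitro, occurred at 13 strong sites and in 4 flanks (p = 0.0490, adjusted p = 0.218, exact McNemar test). IR0 was found at 7 strong sites and in 7 flanks. DR0 had the opposite order, with 18 sites and 32 flanks (adjusted p = 0.218, exact McNemar test), and the other spacers gave adjusted p of 0.515 or more in the same test.

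**Figure D3:**
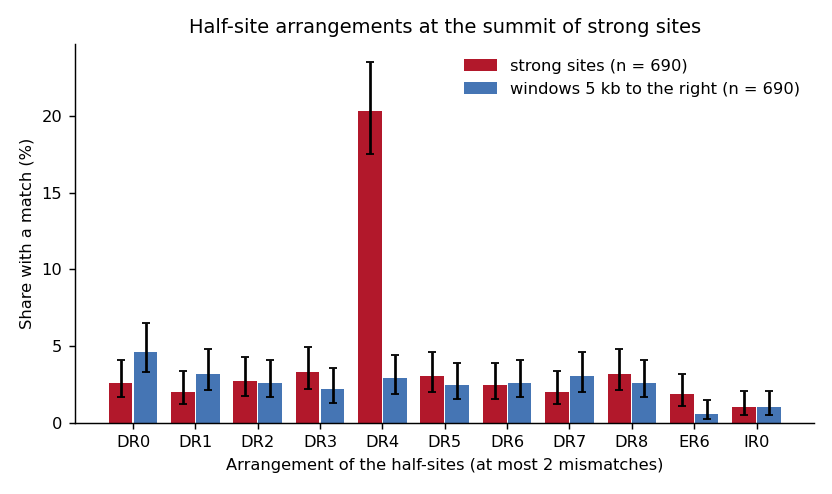
Share (%) of the 690 strong sites (red) and of the 690 windows 5 kb to their right (blue) with each arrangement of half-sites, with up to 2 mismatches and 95% Wilson intervals. DR4 reaches 20.3% at the sites and 2.90% in the flanks, while the other arrangements lie between 1.01 and 3.33% at the sites.

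The difference from the other sites lay in elements with 2 or 3 mismatches. A best match with 2 mismatches was found at 124 strong sites (18%) and at 9.80% of the other sites, and one with 3 mismatches at 245 (35.5%) and at 24.8%. With 0 or 1 mismatch the order over all distances was opposite, with 16 strong sites (2.32%) and 3.13% of the other sites. This difference did not pass (Fisher's exact test, p = 0.265). Beyond 1 kb of a TSS the order was the same (2.38% and 3.70%, Fisher's exact test, p = 0.167). Within 1 kb strong sites had more, 5 of 227 (2.20%) against 0.857% of the other sites, which did not pass either (Fisher's exact test, p = 0.0556). Among DR4 elements of at most 2 mismatches, those with at most 1 made up 16 of 140 (11.4%, interval 7.16 to 17.8%) at strong sites and 729 of 3013 (24.2%) at the other sites, an odds ratio of 0.404 (Fisher's exact test, p = 3.23e-04), in a comparison chosen after seeing the data. Beyond 1 kb of a TSS the shares were 11.2% and 25.1% (Fisher's exact test, p = 0.00115), and within 1 kb they were 11.9% and 14.9% (p = 0.814, Fisher's exact test).

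**Figure D4:**
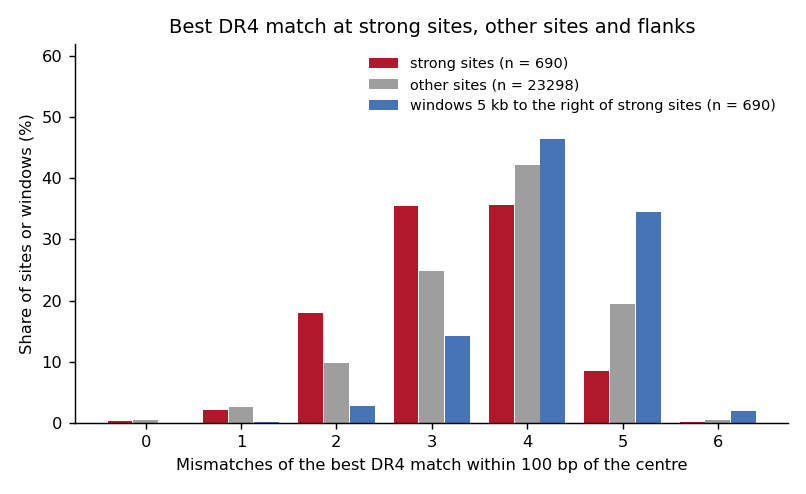
Distribution of the number of mismatches (0 to 6 of 12 half-site bases) in the best DR4 match within 100 bp of the centre, as a share (%) of 690 strong sites (red), 23298 other sites (grey) and the 690 windows 5 kb to the right of strong sites (blue). Strong sites exceed the other sites at 2 and 3 mismatches (18 and 35.5% against 9.80 and 24.8%) and not at 0 or 1.

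The half-site sequences are given beside this. In the elements of strong sites, the upstream half-site was GGGTCA in 22 of 140, AGGTCA in 21 and AGGGCA in 19. The downstream half-site was AGGTCA in 27, AGGACA in 22 and GGGTCA in 15. At the other sites AGGTCA was the leading sequence of both half-sites, with 27.1% upstream and 27.2% downstream, against 15% and 19.3% at strong sites. In the spacer, the third base was T in 45.0%, C in 35% and A in 3.57% of strong elements, and T in 49.7%, C in 27.7% and A in 9.06% of those at the other sites. The last base was G in 39.3% and 40.0%.

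Mismatches fell on both half-sites. With at most 2 mismatches, 25 strong elements had more in the upstream half-site, 19 had more in the downstream one and 96 had equal numbers (exact binomial test, p = 0.451). When 3 mismatches were allowed, the upstream half-site carried more in 165 elements and the downstream one in 124 (exact binomial test, p = 0.0185). The order was the same at the other sites, with 3719 and 3470 elements (exact binomial test, p = 0.00344). The elements had a median distance of 22.0 bp from the summit at strong sites and 28.5 bp at the other sites, and the 20 elements in the flanks of strong sites lay a median of 31.5 bp from the centre of their window. Within 25 bp lay 59.3% of the strong elements and 45.0% of those at the other sites, a share that was also 45.0% in the flanks.

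At promoters the contrast between strong and other sites was larger when at most 2 mismatches were allowed. Within 1 kb of a TSS, 42 of 227 strong sites (18.5%) and 5.76% of the other sites had a DR4 of at most 2 mismatches (odds ratio 3.71, Fisher's exact test, p = 1.12e-10). Beyond 1 kb it was 98 of 463 (21.2%) against 14.7% (odds ratio 1.55, Fisher's exact test, p = 2.61e-04). The ratio of the odds ratios was 2.39, with a 95% interval of 1.56 to 3.64, in a comparison chosen after seeing the data, but it was 0.967 (0.693 to 1.35) when 3 mismatches were allowed. Strong promoter sites and strong distal sites did not differ detectably at this limit (18.5% and 21.2%, odds ratio 0.846, Fisher's exact test, p = 0.481), whereas with 3 mismatches promoters had fewer (41.9% and 62.6%, p = 3.73e-07). Among sites between the 25th and 75th percentile of GC content of the strong sites, the shares were 13.9% against 3.94% within 1 kb (Fisher's exact test, p = 3.13e-05) and 21.2% against 15.7% beyond it (p = 0.0293).

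Within the strong sites, fold enrichment was similar across classes of DR4 match, as a description of values that the choice of sites used. The rule cut off lower pileups, so these medians cannot show how DR4 match and fold enrichment relate over all TRBS. The median fold enrichment was 45.0 for the 16 strong sites with at most 1 mismatch, 42.4 for the 124 with 2, 43.5 for the 245 with 3 and 41.8 for the 305 with 4 or more. The last class had the most promoters (43.3% within 1 kb of a TSS, against 21.6% with 3 mismatches) and a median GC content of 59.7%.

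Elements of other factors were searched without mismatches on both strands within the same windows, as 19 motifs in 2 distance classes. Within 1 kb of a TSS, the ETS motif CCGGAAG was found at 15.4% of strong sites and 8.87% of the other sites (adjusted p = 0.0188, Fisher's exact test), and the NRF1 motif GCGCANGCGC at 10.1% and 4.80% (adjusted p = 0.0188, Fisher's exact test). Beyond 1 kb, the GC box GGGCGG bound by SP and KLF factors was found at 14.5% and 9.14% (adjusted p = 0.00915), and the CTCF core CCANNAGNNGGC at 4.32% and 1.89% (adjusted p = 0.0172), both in Fisher's exact test. Over all TRBS these motifs occurred at 2.91% (ETS), 1.30% (NRF1), 18.2% (GC box) and 1.94% (CTCF) of windows. Among sites of the middle GC range, which held 115 of the strong sites within 1 kb and 236 beyond, none of the 4 passed after adjustment in Fisher's exact test. The odds ratio there was about as large for ETS (1.97 against 1.87 over all sites, 20.9% and 11.8%, adjusted p = 0.296, Fisher's exact test) and for NRF1 (2.14 against 2.24, 12.2% and 6.09%, adjusted p = 0.324). For CTCF it was 1.84 against 2.34 (4.24% and 2.34%, adjusted p = 0.743, Fisher's exact test). For the GC box it was 1.10 against 1.68, with shares of 8.47% and 7.77%.

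The AP-1 motif TGANTCA of Fos and Jun factors, present at 11.5% of all TRBS, was found at 16.4% of distal strong sites and 13.5% of distal other sites (adjusted p = 0.418, Fisher's exact test). A single exact half-site, AGGTCA, which can lie within a DR4 and is part of the longer half-site motifs searched, was no more frequent at strong sites, with 13.2% against 12.6% within 1 kb and 18.6% against 19.1% beyond (adjusted p = 0.994 in both, Fisher's exact test). The motif CACGTG of clock and other bHLH factors occurred at 8.81% and 6.45% within 1 kb and at 6.05% and 4.15% beyond, and neither comparison passed (adjusted p = 0.582 and 0.418, Fisher's exact test).

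The 15 sites of highest fold enrichment fell on genes of varied roles. At promoters, the site 143 bp upstream of the TSS of Kmt5c, a histone methyltransferase gene, was at fold 121 and pileup 364, and the one 227 bp upstream of Dot1l, another histone methyltransferase gene, had the highest pileup of all strong sites, 445, at fold 107. Nr1d2, which encodes the heme-binding repressor REV-ERBβ, had its site in an intron 795 bp downstream of the TSS at fold 112 and pileup 317. Promoter sites also lay 282 bp upstream of Chn1, a regulator of Rac GTPases (fold 107), and 116 bp upstream of Lingo3, a leucine-rich repeat membrane protein (fold 103). None of these promoter sites had a DR4 of at most 2 mismatches, the best matches having 3 to 5.

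Other leading sites were intronic. They lay in Dmtn, which encodes an actin-bundling protein of the membrane skeleton (fold 112), in Tlr4, the receptor for lipopolysaccharide (fold 109), in Ctss, a lysosomal protease (fold 105), and in Ttll11, a tubulin polyglutamylase (fold 104). The intronic site of Pde10a, the phosphodiesterase typical of striatal projection neurons, reached fold 96.3 at a pileup of 258. Of these 5, Dmtn and Pde10a had the DR4 shown above.

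The highest fold enrichment of the list, 123 at a pileup of 329, was at an intergenic site on chromosome 5, 335960 bp upstream of Rnf32, its nearest protein-coding gene. Intergenic sites were also found 73602 bp upstream of Ppp2r5c, a phosphatase subunit (fold 104), 17606 bp upstream of Vps37b, of the endosomal sorting machinery (fold 102), and 96561 bp upstream of Basp1, a membrane protein of growth cones (fold 96.3). Ranking by pileup added 2 genes, Eef2, the translation elongation factor (pileup 312, 1468 bp upstream), and Wnt10a, a Wnt ligand (pileup 309, 25422 bp downstream of its TSS).

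The longest strong site lay near Setd5, a chromatin regulator gene. It measured 2903 bp (chr6:113074141-113077043), at fold 93.3 and pileup 342. Its summit lay 895 bp upstream of Setd5 and 863 bp downstream of the TSS of Gt(ROSA)26Sor, the ROSA26 locus, which is widely used to carry transgenes. The GC content around the summit was 76.1%, and the best DR4 match had 5 mismatches. Where the tagged receptor had been inserted was not given in the sources used here, and its part in this value was not tested.

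The 16 sites with a DR4 of at most 1 mismatch had fold enrichments from 26.8 to 71.0, and the 10 shown above are those of highest fold among them, from 44.9 upwards. The highest, 71.0, lay in an intron of Cyp46a1, the cholesterol hydroxylase of neurons, 4611 bp downstream of the TSS. Perfect elements were present at 2 strong sites only, 4956 bp upstream of Thbs4, a matricellular thrombospondin (fold 48.3), and in an untranslated exon of 2310061I04Rik (fold 48.7). Abcd2, a peroxisomal transporter of fatty acids, carried its element 172 bp upstream of the TSS (site at fold 55.0), and Rcc2, a chromosome condensation factor, in an intron at 679 bp (fold 62.2).

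Some of these sites were not in the gene that names them. The site nearest to Ppp1ca, a phosphatase catalytic subunit, lay in a coding exon of Rad9a (fold 50.6). Cmya5, a muscle protein gene, had its TSS 115244 bp from the site (fold 49.7). The sites of Siae, a sialic acid esterase, and Grip1, a scaffold of glutamate receptors, were intronic (both at fold 45.0), and that of Yif1b, a membrane trafficking gene, lay 134 bp from the TSS at fold 44.9.

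Within 30 kb of the TSS, 854 of 21938 protein-coding genes (3.89%) had a strong site, compared with 11698 (53.3%) that had any TRBS. A single strong site was found for 826 genes, 2 for 28 genes, and 3 or more for none. Of these 28, the genes Lingo3, Lsm7 and Oaz1 shared the same pair of strong sites on chromosome 10, at folds of 103 and 59.8 and with no DR4 of at most 2 mismatches. These shares are the base for the gene lists, which were written with earlier results known and are described by counts only.

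Known thyroid hormone response genes had strong sites in 6 of 20 cases (30%), and any TRBS in 14. Hr, a thyroid hormone-induced corepressor of nuclear receptors, had a site 2723 bp upstream at fold 71.8 and pileup 192. Klf9, a zinc finger factor induced by T3 in neurons, had one 5194 bp upstream at fold 47.7 and pileup 244. Nrgn, a calmodulin-binding protein of dendritic spines, had one 20330 bp upstream, at fold 45.0, which is the Siae intronic site with the DR4 of 1 mismatch printed above. Hcn2, a pacemaker channel subunit, had one 215 bp upstream at fold 41.3.

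The receptor genes themselves completed this list, and they are named although the rule for names did not reach them. The strong site of Thrb lay 27143 bp upstream at fold 38.3 and pileup 102, close to the limit of the rule. That of Thra lay in a coding exon, 23737 bp from its TSS, at fold 37.7 and pileup 101. The tagged protein is itself a Thra product, so reads from a transgene and from the genomic locus cannot be told apart in that exon.

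Nuclear receptor genes had strong sites in 6 of 48 cases (12.5%) and any TRBS in 28. Beyond Nr1d2 these were Ppard, a fatty acid-sensing receptor (fold 92.0, 6417 bp upstream, in a coding exon of Def6), Nr1d1, which encodes REV-ERBα (fold 64.7 in its intron, and the Thra exon as a second site), and Rxrb, a heterodimer partner of TR (fold 40.4, 98 bp upstream). The other 2 were Thra and Thrb. The site upstream of Rxrb had Slc39a7 as its nearest protein-coding gene. Coregulators had strong sites at 3 of 22 genes (13.6%), namely Hr, the coactivator Ncoa3 (fold 50.0, 142 bp upstream) and the arginine methyltransferase Carm1 (fold 40.6, 254 bp upstream).

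Circadian clock genes had strong sites in 6 of 20 cases (30%), against 3.89% of all genes, and any TRBS in 19. Nr1d2 and Nr1d1, the repressors of the clock, were among them. Hlf, a PAR bZIP output factor, had a site 27211 bp upstream at fold 74.5, and Per3, a period gene, had one 225 bp upstream at fold 68.4. Bhlhe41 (fold 41.8) and Dbp (fold 38.6) were the others, named here after their values were seen. Dbp, also a PAR bZIP factor, was the only one of the 6 whose strong site had a DR4 of at most 2 mismatches. Of all strong sites, 20.3% had such a DR4.

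Histone methyltransferases and demethylases had strong sites at 5 of 36 genes (13.9%), and any TRBS at 29. Besides Kmt5c and Dot1l, these were Kmt2e (fold 59.9, 939 bp upstream), the demethylase Kdm6b (fold 56.5, 4586 bp upstream) and, outside the rule for names, Nsd1 (fold 35.6). Immediate early genes respond first to neuronal activity. Among the 20 on this list, TRBS lay near 18 (90.0%) and a strong site near none. The Wilson interval allows a share of up to 16.1% and so includes the 3.89% of all genes. Early genes outside the list were not counted, so the class as a whole may have strong sites. Atf3, named after its values were seen, was not listed. It had a strong site upstream, within 30 kb of the TSS, at fold 90.7 and pileup 263.

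Genes of striatal cAMP and G protein signalling had strong sites in 5 of 24 cases (20.8%), and any TRBS in 21. Rgs9, which ends G protein signals downstream of dopamine receptors, had one in an intron at fold 90.4 and pileup 242. Pde1b, a calcium-dependent phosphodiesterase, had one 1950 bp upstream at fold 57.3, and Gng7, the striatal G protein γ subunit, had 2, at folds of 47.0 and 30.2. Ppp1r1b, which encodes DARPP-32 and carries dopamine signals to a phosphatase, had one 2245 bp upstream at fold 42.4. The fifth gene was Rasgrp2 (fold 29.7).

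Counting the strong summits inside these genes, chosen after seeing the data, gave 8 of 24 genes, against 1.89% of all protein-coding genes. Pde10a held 3 strong sites (folds 96.3, 51.1 and 43.5), all over 130 kb from its TSS, and Adcy5, the adenylyl cyclase of striatal neurons, held 2 (folds 61.5 and 48.7). Pde7b held 1 at fold 51.6 and Arpp21, a cAMP-regulated phosphoprotein, 1 at fold 33.4. Gnal, the stimulatory G protein α subunit of the striatum, held 1 at fold 33.2, and the others were Gng7, Rasgrp2 and Rgs9. These 8 genes had a median length of 145 kb (15.9 to 461 kb), against 33.3 kb for the list and 17.4 kb for all protein-coding genes. For the 415 protein-coding genes with a strong summit inside, the median was 56.6 kb. The part of gene length in this count was not tested.

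Of the 40 strong sites near or inside genes of the lists, 6 (15%) had a DR4 of at most 2 mismatches, compared with 20.3% of all strong sites. Nrgn's and the Pde10a element are given above, and the other 4 are shown, with capitals for the half-sites, so that every DR4 of this limit at a listed gene is given.
Dbp, chr7:45707843-45707868, minus strand: agcccGGGTCAgccgAGGACAccagt
Ppp1r1b, chr11:98346095-98346120, plus strand: gaattAAGTCAaatgAGGTCTtgaaa
Pde1b, chr15:103501096-103501121, plus strand: gggtgAGGGCAgggcAGTTCAgcaga
Adcy5, chr16:35207471-35207496, minus strand: gggtcAGGTCGgggcGGGTCAgggtg
Each of these 4 elements had 2 mismatches, and their centres lay 2.50 bp (Dbp), 24.5 bp (Pde1b), 48.5 bp (Adcy5) and 51.5 bp (Ppp1r1b) from the summit.

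Lists of cell type genes give the setting. Striatal projection neuron genes had strong sites in 5 of 25 cases (20.0%): Rgs9, Gng7, Ppp1r1b and Rasgrp2, which are in the signalling list too, and Bcl11b, the transcription factor CTIP2 (fold 38.3, 14102 bp upstream). A strong summit lay inside 8 of the 25, against 1.89% of all protein-coding genes, and the part of gene length was not tested. Apart from Rarb, a retinoic acid receptor (fold 38.9), these genes were already counted in the signalling list. General neuronal genes had none in 20, with any TRBS near 70.0%. Astrocyte, oligodendrocyte, endothelial and hepatocyte genes had none in 20, 20, 20 and 19 genes, with any TRBS near 40.0%, 35%, 30% and 31.6%. Inside the oligodendrocyte gene Mbp, which is also a thyroid hormone response gene, lay 1 strong site at fold 32.7.

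Microglial genes had a strong site within 30 kb of the TSS in 1 of 20 cases (5%, against 3.89% of all genes), at Ctss, and any TRBS in 4. A second gene, Tlr4, had one inside it.

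**Figure D5:**
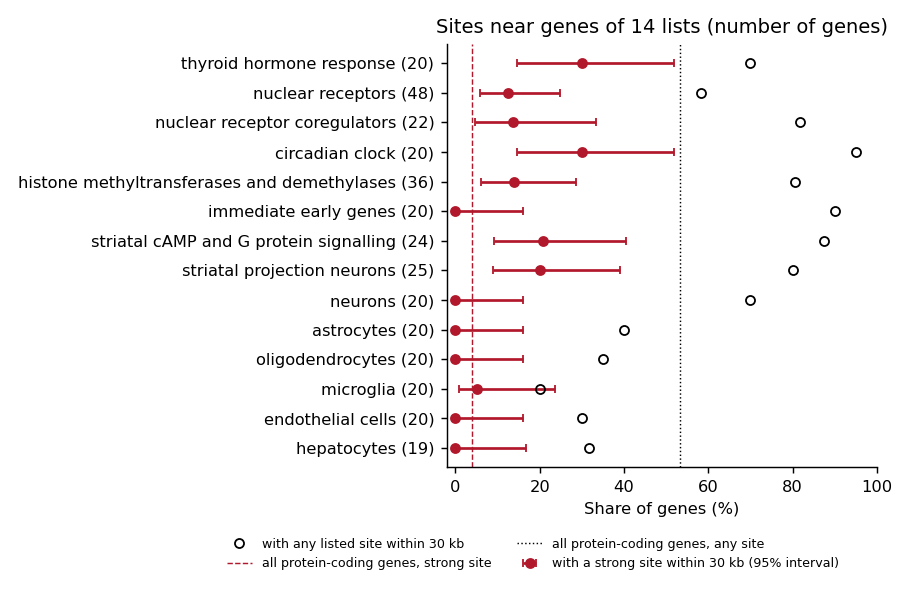
Share (%) of the genes of 14 lists with a strong site (red, 95% Wilson interval) or any TRBS (open circles) within 30 kb of the TSS, with the number of genes in parentheses and the shares of all protein-coding genes as lines (3.89% dashed, 53.3% dotted). Thyroid hormone response and clock genes both reach 30% for strong sites, and the lists at 0 have intervals that include the 3.89% of all genes.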

How the data were processed

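ChIP-seq of striatum gave 1 deposited peak list, from 2 ChIP libraries and 1 input library grouped by their titles. Reads had been aligned to GRCm38 (mm10) with Bowtie and peaks called with MACS on Galaxy. The submitters' processing notes list Bowtie2 2.3.2.2 and MACS2 2.1.1.20160309.0. Peaks scoring under 60 were dropped by the authors, and the score is part of the deposited list. Pooling of the ChIP libraries and the treatment of duplicates, which can both change pileup, were not given in the sources used here. The deposited pileup is fragment coverage at the summit, and the fold enrichment of the authors is its ratio to the local background, after adding 1 to both. No test used the −log10 p values of the authors. Each site has 1 set of values for the series, so replicates were not compared.

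The local background was (pileup + 1) / fold enrichment − 1. Summits were annotated with GENCODE M21 on GRCm38, with 21938 protein-coding genes among 55413, and assigned in this order to exons, introns, 5 kb upstream regions, 1 kb downstream regions or intergenic sequence. Half-sites and motifs were searched on both strands in 201 bp around the summit. Fisher's exact test compared strong with other sites, and the exact McNemar test compared sites with flanks. Adjusted p-values follow Benjamini and Hochberg over the 5 regions, the 11 arrangements or the 38 motif comparisons, with a threshold of 0.05.

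Members, lists, tests and motifs were chosen with earlier results of these data known. Named genes were those nearest to the 15 sites of highest fold enrichment, the 10 of highest pileup and the 10 of highest fold with a DR4 of at most 1 mismatch, genes with at least 3 strong sites, which gave none, and up to 4 genes of each list. Further names are identified as exceptions or were chosen after their values were seen. All 14 lists matched the annotation except 1 hepatocyte gene.

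The software was scipy 1.17.1, pandas 2.3.3, numpy 2.4.6 and matplotlib 3.10.9 under Python 3.11.15. The DR4 scan, Fisher's exact test and the McNemar test were tried on simulated windows of random bases at equal frequencies. The GC content of the real windows, the other motifs and the other tests were not simulated.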

Additional observations from a re-analysis of the deposited data

How the results depend on the processing

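Of 63 alternative values, 45 kept their direction and call or, for counts, moved by less than 1.5 times. The share within 1 kb of a TSS and the DR4 excess over flanks did so under every alternative tried for them. Pileup limits of 75 and 150 gave 1375 and 224 strong sites and 1492 and 316 genes. The TSSs of all annotated genes gave 1524 genes, and a distance of 10 kb gave 432. At most 1 mismatch turned the DR4 comparison with the other sites, 2.32% against 3.13% (p = 0.265, Fisher's exact test), also beyond 1 kb alone, 2.38% against 3.70% (p = 0.167, Fisher's exact test). Within 1 kb that limit kept the direction, 2.20% against 0.857%, but the comparison did not pass (p = 0.0556, Fisher's exact test). Strong promoter and distal sites turned at a background of at most 3 fragments, 21.4% against 20.8% (p = 0.914, Fisher's exact test), and passed with 3 mismatches, 41.9% against 62.6% (p = 3.73e-07). The upstream share of unequal mismatches was 35.7% with at most 1 (p = 0.424) and 57.1% with 3 (p = 0.0185), in exact binomial tests, against 56.8% with 2. Restriction to the middle GC range, chosen after seeing the data, left 0 of the 4 calls for other motifs, with about as large odds ratios for ETS (1.97) and NRF1 (2.14), 1.84 for CTCF and 1.10 for the GC box. The cause of these changes was not tested. No paired analysis was possible because libraries had no values of their own, and for the same reason no library could be left out.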
